A study of Homo sapiens and Mus musculus with 10 samples.

Results

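The genes described here encode the proteins of the cytosolic ribosome. They were taken by symbol as the entries named RPL or RPS with a number and an optional A, X or L, together with RPLP0, RPLP1, RPLP2 and RPSA, and RPS27L and RPL22L were left out. This gave 80 of 27800 human symbols, 49 of the large and 31 of the small subunit, and 81 of 24493 mouse symbols, 50 of the large and 31 of the small subunit. In all, the rule took 79 symbols in both lines, RPS3A only in MOLM-13, and Rpl32l and Rps4l only in ER-Hoxa9. It misses a gene listed under a symbol of another form, so these differences do not show that a gene is absent from a line. A mean of at least 1 TPM, a level corrected for transcript length and scaled to a library total of 1000000, was reached by 78 members in MOLM-13 and by 77 in ER-Hoxa9, and only these were tested. The members below it were RPL3L and RPL10L in MOLM-13 and Rpl10l, Rpl39l, Rpl32l and Rps4l in ER-Hoxa9.

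The study asked how inhibition of KAT6A, a histone acetyltransferase of the MYST family, alters transcription in myeloid leukaemia models, and WM-1119 is the small molecule inhibitor that was used. MOLM-13, a human acute myeloid leukaemia line, was sampled as 3 libraries after 4 µM WM-1119 for 4 days and as 3 DMSO libraries, all grown in RPMI with fetal bovine serum and antibiotics. ER-Hoxa9, a mouse line, was sampled as 2 libraries after 2 µM WM-1119 for 4 days and as 2 DMSO libraries. All ER-Hoxa9 cultures, controls included, also received β-estradiol and medium conditioned by Chinese hamster ovary cells that secrete stem cell factor. Whether the replicates came from separate cultures is not stated, so every p-value refers to the spread among the libraries at hand, part of which may be technical. Dose and species differ between the lines and their tables were normalized separately, so no test was made across them.

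Each ribosome joins a small subunit, which reads the messenger RNA, to a large subunit, which forms the peptide bond, and most ribosomal proteins are present as a single copy per particle. Their transcripts are short, very abundant and share a terminal oligopyrimidine (TOP) tract at the 5′ end, through which mTOR and LARP1 control their translation and stability. Loss of a copy of several of these genes causes Diamond-Blackfan anaemia, and unassembled large subunit proteins can bind MDM2 and so stabilize p53.

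The shared start of these transcripts was read from RefSeq promoter entries (GRCh38.p14), which matched 63 of the 80 human members with 78 entries. A C at the annotated start followed by at least 4 pyrimidines was found for 46 of the 63 (73.0%), against 1404 of all 27305 genes of the table (5.14%). The windows below run from 10 bases before the annotated start to the first 20 transcribed bases, 5′ to 3′, and capitals mark the pyrimidine run that begins at the start. They show 3 of the 4 members with the highest differences in MOLM-13 (RPS27, RPLP1, RPL19), 3 of the 4 with the lowest (RPL35A, RPL38, RPL14; RPL12 and RPS12 stand for the lowest in ER-Hoxa9), the most abundant human member (RPS18), and RPS29.
RPS27 (chr1:153990752-153990781, plus strand): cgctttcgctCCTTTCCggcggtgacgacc
RPLP1 (chr15:69452808-69452837, plus strand): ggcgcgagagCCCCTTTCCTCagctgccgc
RPS18 (chr6:33272065-33272094, plus strand): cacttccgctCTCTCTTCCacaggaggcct
RPL35A (chr3:197950180-197950209, plus strand): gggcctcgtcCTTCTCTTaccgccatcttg
RPL38 (chr17:74203668-74203697, plus strand): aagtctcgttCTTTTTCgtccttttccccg
RPL14 (chr3:40457329-40457358, plus strand): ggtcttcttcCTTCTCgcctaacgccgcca
RPL12 (chr9:127451387-127451416, minus strand): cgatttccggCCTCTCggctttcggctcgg
RPS12 (chr6:132814559-132814588, plus strand): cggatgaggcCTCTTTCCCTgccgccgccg
RPS29 (chr14:49598691-49598720, minus strand): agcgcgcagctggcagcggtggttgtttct
RPL19 (chr17:39200313-39200342, plus strand): agctctttcctttcgctgctgcggccgcag
RPS29 and RPL19 carry no capitals because the annotated start of each was not a C followed by 4 pyrimidines (RPL19 has another entry, which lacks it too). The entry of RPS26, which had the highest difference in MOLM-13 and is not shown, lacks such a start as well. On both strands of the 250 bases before to 50 bases after the start, CCGGAAG, the core of sites bound by ETS factors, was found for 34.9% of the 63 members and 12.2% of all genes. The E-box CACGTG, to which MYC binds, was found for 6.35% of members and 8.77% of all genes. No CACGTG in this window says only that these letters are not there. In MOLM-13 the median log2 difference between WM-1119 and DMSO was -0.14 over the 46 tested members with the TOP start. It was -0.13 over the 16 tested members whose entries lack that start. The rule depends on the exact annotated base. In RPL19 and RPL10A, for example, a pyrimidine run lies across that base or close to it. These medians therefore do not set members with a TOP tract against members without one.

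All 8 myeloid leukaemia markers averaged at least 1 TPM in both MOLM-13 and ER-Hoxa9, and of 9 myeloid progenitor markers 8 did in MOLM-13 and 9 in ER-Hoxa9, so these lists do not tell the lines apart. MS4A1, a B cell marker, was listed at 0 in every library of both lines. Other lists of cells that the cultures should lack were not at 0. In MOLM-13, 6 erythroid genes summed to 10.0 to 160 TPM with DMSO and 13.6 to 226 TPM with WM-1119. There, 6 T or NK cell genes summed to 92.4 to 162 against 126 to 147 TPM, mostly from NKG7. In ER-Hoxa9 the erythroid sums were 3.18 to 7.88 against 4.30 to 4.90 TPM. The T or NK cell sums there were 9.70 to 16.9 against 13.4 to 16.2 TPM. Of 11 neutrophil and monocyte maturation genes, 9 were listed in the human and 10 in the mouse table. Their sum lay at 651 to 2034 TPM with DMSO against 2175 to 3410 TPM with WM-1119 in MOLM-13, mostly from LYZ, and at 6.16 to 8.26 against 15.6 to 22.6 TPM in ER-Hoxa9, where Lyz2 was listed at 0. The 5 B cell genes summed to 20.8 to 32.5 against 49.4 to 56.5 TPM in ER-Hoxa9, mostly from Cd79b. The part of these marker differences in the ribosomal protein values was not tested. TPM keep no read number, so the depth is unknown. In bulk RNA, fewer cells of a type and less RNA per cell cannot be told apart.

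Ribosomal protein transcripts made up between 25.6% and 39.7% of all TPM in the 10 libraries. In MOLM-13 the share was 26.6%, 28.3% and 39.7% in DMSO replicates 1, 2 and 3, and 27.3%, 25.6% and 33.8% in the WM-1119 replicates. The groups overlapped, with means of 31.5% ± 7.13 (SD, n = 3) and 28.9% ± 4.32 (SD, n = 3), and replicate 3 was the highest library of each. Between libraries of the same number, the WM-1119 share differed by 0.746, -2.68 and -5.89 percentage points. Without DMSO replicate 3 the difference of the means was 1.47 points in the other direction. Without the whole replicate 3 pair, chosen after seeing the data, it was -0.968 points, in the same direction as with all libraries.

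In ER-Hoxa9 the share was 33.4% and 29.4% in the DMSO libraries and 28.4% and 27.3% in the WM-1119 libraries. Both WM-1119 libraries lay below both DMSO libraries, with means of 31.4% ± 2.82 (SD, n = 2) for DMSO and 27.9% ± 0.759 (SD, n = 2) for WM-1119. A TPM is a share of its library, so each value also moves with other abundant entries. Entries named as microRNAs held 17.3% ± 3.39 (SD, n = 3) of MOLM-13 DMSO libraries and 9.25% ± 2.42 (SD, n = 2) of ER-Hoxa9 DMSO libraries. Between same-numbered libraries their share differed by -3.86, 1.71 and -0.387 points in MOLM-13 and by 0.172 and -0.400 points in ER-Hoxa9, and with those entries removed the median difference of members moved from -0.13 to -0.15 in MOLM-13 and remained -0.17 in ER-Hoxa9.

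**Figure D1:**
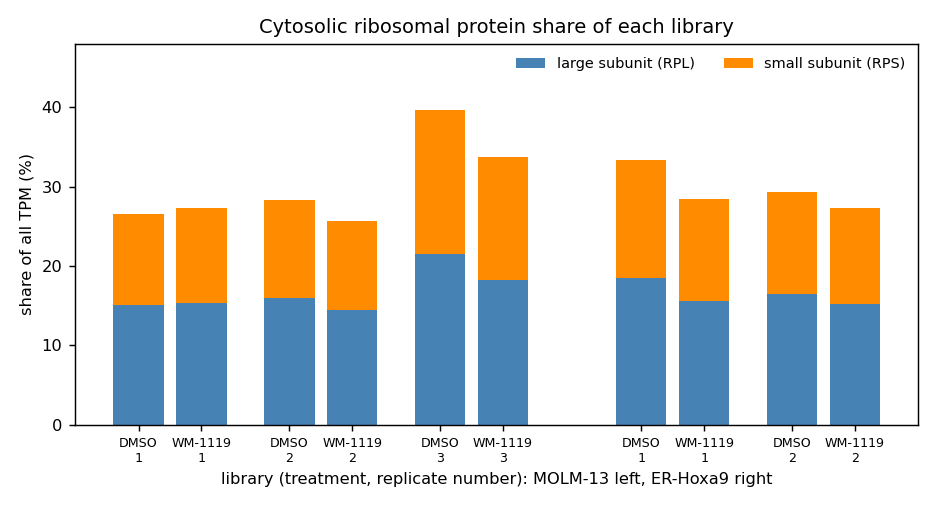
Stacked bars give the percentage of all TPM held by large (blue) and small (orange) subunit genes in each of the 10 libraries, with MOLM-13 on the left and ER-Hoxa9 on the right. The MOLM-13 DMSO replicate 3 library is the highest at 39.7%, and both ER-Hoxa9 WM-1119 libraries, at 28.4% and 27.3%, lie below both DMSO libraries.

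No member passed limma's test at an adjusted p under 0.05 in either line, where the whole table gave 0 higher (0.0%) and 1 lower (0.00804%) of 12436 genes in MOLM-13, and 2 higher and 2 lower (0.0176% each) of 11362 genes in ER-Hoxa9. At an unadjusted p under 0.05 the same fit also gave 0 members in each line, where it gave 2.08% of genes higher and 0.965% lower in MOLM-13, and 11.6% higher and 1.13% lower in ER-Hoxa9. The adjusted p of every tested member was 1.00 in MOLM-13 and lay between 0.392 and 0.999 in ER-Hoxa9. With replicate numbers as a block in MOLM-13, 0 members passed the adjusted threshold (0.0% of all genes in either direction). At an unadjusted p under 0.05 the block gave 5 members with lower values (4.91% of all genes), RPL5, RPL14, RPL27, RPL38 and RPS7, and 0 with higher values (13.2%). RPL27 and RPS7 are named after their values were seen. With median-of-ratios scaling the unadjusted count of lower members was 0 of 78 in MOLM-13 (1.63% of all genes) and 10 of 77 in ER-Hoxa9 (3.61%), and with the block and this scaling it was 17 of 78 in MOLM-13 (9.16%). None of these members passed the adjusted threshold in those fits.

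The differences were small and of 1 sign for most members. In MOLM-13, 71 of 78 tested members had a negative log2 difference, where 38.5% of all genes did, and their median was -0.13 against 0.052 for all genes. In ER-Hoxa9, 74 of 77 were negative, where 28.1% of all genes were, with a median of -0.17 against 0.12. Of the 76 members tested in both lines, 69 were negative in both, where 13.3% of 8726 genes tested in both were, and 1, RPS27, was positive in both, where 50.5% of genes were. Scaling by median of ratios moved the median of all ER-Hoxa9 genes from 0.12 to -0.0026 and that of the members to -0.30, with 74 of 77 members and 50.5% of all genes negative. In MOLM-13 it moved the members to -0.20, with 73 of 78 members and 52.3% of all genes negative.

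The pairs differed in MOLM-13. WM-1119 was below DMSO for 28 of 78 members in the replicate 1 pair, 71 in the replicate 2 pair and 75 in the replicate 3 pair, where 42.9%, 46.2% and 34.3% of all genes were. It was below DMSO in all 3 pairs for 26 members (14.4% of all genes). Without DMSO replicate 3, 38 of 78 members were negative (48.7%, against 57.1% of all genes), and the median was 0.0013, against -0.035 for all genes. With the block and without the replicate 3 pair, 63 of 78 were negative (43.5% of all genes), with a median of -0.063. In ER-Hoxa9 WM-1119 was lower for 75 and 71 of 77 members in the 2 pairs (26.2% and 36.3% of all genes) and for 70 in both (15.7%). Without DMSO replicate 1 the median was -0.072 with 62 of 78 negative, against 0.10 and 29.3% negative for all genes.

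Every WM-1119 library lay below every DMSO library for 8 of 78 members in MOLM-13 (all genes 2.43%) and for 41 of 77 in ER-Hoxa9 (all genes 7.94%). The 8 were RPL4, RPL5, RPL7A, RPL14, RPL29, RPL32, RPS3 and RPS7, of which those other than RPL5 and RPL14 are named after their values were seen. In ER-Hoxa9 the 41 comprised 28 large and 13 small subunit members. For 0 members did every WM-1119 library lie above every DMSO library, where 4.54% of all genes did so in MOLM-13 and 40.3% in ER-Hoxa9.

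**Figure D2:**
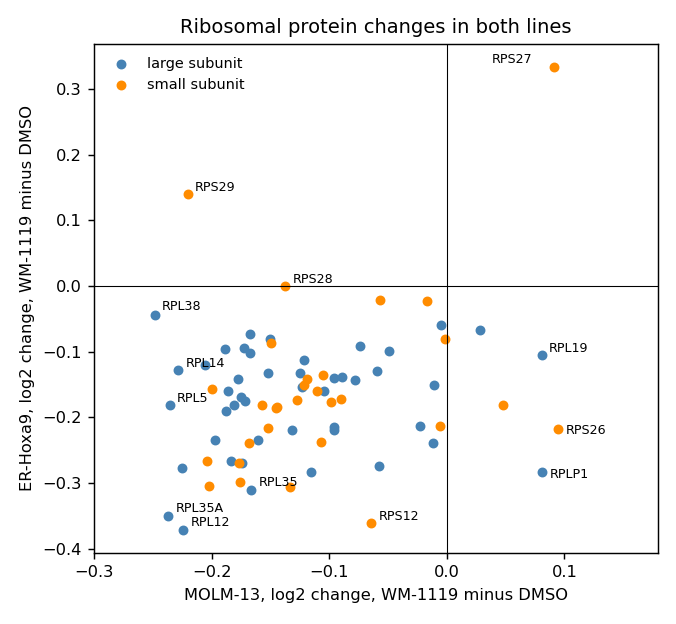
Each point is 1 of 76 members tested in both lines, placed by its log2(TPM + 1) difference, WM-1119 minus DMSO, in MOLM-13 (horizontal) and ER-Hoxa9 (vertical), with blue for the large and orange for the small subunit. 69 points lie in the lower left field, and RPS27 is the member positive in both lines.

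The subunits stayed close to each other. The median log2 difference was -0.15 for large (43 of 47 negative) and -0.13 for small subunit members (28 of 31 negative) in MOLM-13, and -0.15 (46 of 47) and -0.18 (28 of 30) in ER-Hoxa9. The log2 ratio of summed large to summed small subunit TPM was 0.39, 0.38 and 0.25 in MOLM-13 DMSO replicates and 0.37, 0.37 and 0.23 in the WM-1119 replicates, and the groups overlapped. In ER-Hoxa9 it was 0.32 and 0.35 in DMSO and 0.27 and 0.32 in WM-1119 libraries. Within same-numbered libraries the ratio was lower under WM-1119 in all 5 pairs. The differences were -0.026, -0.011 and -0.015 in MOLM-13 and -0.047 and -0.030 in ER-Hoxa9. The numbers are not shown to pair the ER-Hoxa9 libraries, where DMSO replicate 1 (0.320) lay below WM-1119 replicate 2 (0.324). The SD of this ratio between DMSO libraries was 0.082 in MOLM-13, where replicate 3 was lowest in both groups, and 0.024 in ER-Hoxa9, and the ER-Hoxa9 groups overlapped.

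Among large subunit members, the acidic stalk that recruits elongation factors to the ribosome is built from RPLP0, RPLP1 and RPLP2. RPLP0 measured 3882, 4183 and 3794 TPM with DMSO and 4254, 4249.7 and 3330.1 TPM with WM-1119 in MOLM-13. RPLP1 measured 5493, 6777 and 10662 TPM with DMSO and 6748, 6795 and 10249 TPM with WM-1119, with the replicate 3 library of each group highest. RPLP2 measured 2749.5, 3127 and 5848 TPM with DMSO and 2784, 2890.1 and 4475 TPM with WM-1119. The groups overlapped for all 3. Log2 differences, here and below, carry the SE of limma's fit without the replicate block unless stated otherwise. In MOLM-13 this SE includes the spread that same-numbered libraries share. The differences were -0.011 ± 0.15, 0.081 ± 0.28 and -0.16 ± 0.32 for RPLP0, RPLP1 and RPLP2. In ER-Hoxa9 Rplp1 was the most abundant member, at 14587 and 13271 TPM with DMSO and 10932 and 11952 TPM with WM-1119. Both WM-1119 values lay below both DMSO values, with a log2 difference of -0.28 ± 0.14 (adjusted p = 0.458, limma), and Rplp2 (-0.23 ± 0.14) was likewise without overlap. RPL12, which binds the base of the stalk, had the lowest ER-Hoxa9 difference, from 6153 and 5080.3 TPM with DMSO and 4388 and 4257 TPM with WM-1119 (-0.37 ± 0.15, adjusted p = 0.392, limma). In MOLM-13 RPL12 measured 3917, 4728 and 5939 TPM with DMSO and 3993, 3936 and 4392 TPM with WM-1119, and only replicates 2 and 3 were lower under WM-1119.

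RPL5 and RPL11 carry the 5S ribosomal RNA into the large subunit and bind MDM2 when unassembled. RPL5 measured 1816, 1889 and 2162 TPM with DMSO and 1709, 1589.5 and 1673 TPM with WM-1119 in MOLM-13, so that all 3 WM-1119 values lay below all 3 DMSO values, with means of 1956 ± 183 and 1657 ± 61.4 TPM (SD, n = 3) and a log2 difference of -0.24 ± 0.14. Rpl5 measured 1710.1 and 1390.0 TPM with DMSO and 1448 and 1275 TPM with WM-1119, with overlap. RPL11 measured 2762, 3111 and 3577 TPM with DMSO and 2795, 2696 and 2880.0 TPM with WM-1119 in MOLM-13, where replicate 1 was slightly higher under WM-1119, and its log2 difference was -0.17 ± 0.15. A list of 4 proteins that belong to the 5S particle or bind MDM2 held RPL5, RPL11, RPL23 and RPL26. Of these, 4 had negative and 0 called differences in each line, with medians of -0.17 in MOLM-13 and -0.13 in ER-Hoxa9. Since 91.0% of all tested members were negative in MOLM-13 and 96.1% in ER-Hoxa9, this count does not set the list apart from the family.

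RPL3 and RPL10 lie close to the peptidyl transferase centre. RPL3 measured 4076, 4740.0 and 4713 TPM with DMSO and 4161, 4064 and 3636 TPM with WM-1119 in MOLM-13 (-0.19 ± 0.14), and RPL10, mutated in some T-cell leukaemias, 1026, 1061 and 1243 TPM with DMSO and 1137, 1028 and 1146 TPM with WM-1119 (-0.0048 ± 0.16). The groups overlapped for both, and RPL10 was positive, at 0.051, with the block and without the replicate 3 pair. RPL22, a protein often lost in T-cell leukaemia, was one of the less abundant members at 425, 425 and 638 TPM with DMSO and 445, 386 and 549.8 TPM with WM-1119 (-0.10 ± 0.23), and Rpl22 measured 371 and 316 TPM with DMSO and 294 and 296 TPM with WM-1119 in ER-Hoxa9, without overlap. Over 6 members altered in leukaemia or lymphoid tumours, 6 differences were negative and 0 were called in each line, with medians of -0.13 and -0.20. Of all tested members, 91.0% were negative in MOLM-13 and 96.1% in ER-Hoxa9, so this count does not set the list apart from the family.

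The lowest MOLM-13 differences belonged to RPL38, RPL35A, RPL5 and RPL14. RPL38, which in mouse embryos is needed for translation of Hox messenger RNAs, measured 2326, 2349 and 5547 TPM with DMSO and 2095, 1884 and 4579 TPM with WM-1119, lower in each pair. Its difference was -0.25 ± 0.45, and with the replicate block the SE was 0.073 (adjusted p = 0.210, limma). RPL14 measured 1514, 1615 and 1652 TPM with DMSO and 1383, 1368 and 1327 TPM with WM-1119 without overlap, with means of 1594 ± 71.4 and 1359.6 ± 28.8 TPM (SD, n = 3) and a difference of -0.23 ± 0.14. RPL35A, a Diamond-Blackfan anaemia gene, was among the 4 lowest in both lines. It measured 2766, 2847 and 4603 TPM with DMSO and 2699.7, 2326 and 3526 TPM with WM-1119 in MOLM-13 (-0.24 ± 0.25), where each same-numbered pair was lower but the groups overlapped. Rpl35a measured 5490.3 and 4534 TPM with DMSO and 3979 and 3850.1 TPM with WM-1119 in ER-Hoxa9, without overlap (-0.35 ± 0.15, adjusted p = 0.402, limma). Rpl35, at the exit of the peptide tunnel, measured 6876 and 5669.7 TPM with DMSO and 5136 and 4933 TPM with WM-1119 (-0.31 ± 0.15), also without overlap.

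RPL19, which forms a bridge between the subunits, was 1 of 5 members positive in MOLM-13 and negative in ER-Hoxa9. It measured 4478, 4716 and 4325 TPM with DMSO and 5129, 4821 and 4367 TPM with WM-1119 in MOLM-13, each pair being higher under WM-1119, with a difference of 0.081 ± 0.13. RPL39 and RPL41 encode very short proteins, of 51 and 25 residues. RPL41 measured 7351, 7665 and 9644 TPM with DMSO and 7757, 7164 and 9323 TPM with WM-1119 in MOLM-13 (-0.023 ± 0.16), with overlap. In ER-Hoxa9 Rpl41 measured 10275 and 11094 TPM with DMSO and 8498 and 9975 TPM with WM-1119 (-0.21 ± 0.15), without overlap. RPL39, which lines the exit tunnel, measured 2866, 2907 and 5176 TPM with DMSO and 2959, 2665 and 4652 TPM with WM-1119 in MOLM-13 (-0.078 ± 0.30). RPL7, the third most abundant MOLM-13 member, measured 8977, 10059 and 10638 TPM with DMSO and 9049, 8699 and 8889.8 TPM with WM-1119 (-0.15 ± 0.12), and the groups overlapped.

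The paralogues that other work places in muscle or testis were near the floor. RPL3L, a paralogue of RPL3 used in striated muscle, lay between 0.04 and 0.23 TPM in MOLM-13, and Rpl3l measured 1.19 and 2.37 TPM with DMSO and 1.81 and 2.03 TPM with WM-1119 in ER-Hoxa9. RPL10L, a testis retrogene, was listed at 0 in 3 MOLM-13 libraries and did not exceed 0.29 TPM, and Rpl10l was listed at 0 in 3 ER-Hoxa9 libraries. RPL39L was the exception: it measured 20.2, 14.4 and 12.8 TPM with DMSO and 19.1, 16.3 and 13.8 TPM with WM-1119 in MOLM-13 (0.067 ± 0.22), while Rpl39l stayed between 0.22 and 0.45 TPM in ER-Hoxa9.

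Among small subunit members, RPS18, at the head of the subunit, was the most abundant MOLM-13 member, with 11467, 12029 and 16752 TPM with DMSO and 11708, 10776 and 12711 TPM with WM-1119 (-0.18 ± 0.17). In ER-Hoxa9 Rps18 measured 8106 and 7218 TPM with DMSO and 6405 and 6038 TPM with WM-1119, without overlap (-0.30 ± 0.14, adjusted p = 0.428, limma). RPS14, whose single-copy loss contributes to the anaemia of 5q deletion, measured 4445, 4913 and 6887 TPM with DMSO and 4392, 4391 and 5497 TPM with WM-1119 in MOLM-13 (-0.17 ± 0.20), with overlap. In ER-Hoxa9 Rps14 measured 7996 and 6537 TPM with DMSO and 6439.6 and 5829 TPM with WM-1119 (-0.24 ± 0.16), and the WM-1119 libraries were the lower ones in each pair and did not overlap with DMSO. RPS19, the gene most often mutated in Diamond-Blackfan anaemia, measured 4123, 4955 and 7497 TPM with DMSO and 4524, 4457 and 6298 TPM with WM-1119 in MOLM-13 (-0.090 ± 0.25). In ER-Hoxa9 Rps19 measured 5042 and 3889 TPM with DMSO and 4113 and 3753 TPM with WM-1119 (-0.17 ± 0.17), and the groups overlapped in both lines. The 18 Diamond-Blackfan genes had 16 negative and 0 called differences in each line, with medians of -0.17 and -0.18, close to those of all members.

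RPS6, the substrate of S6 kinase, measured 4918, 5026 and 5923 TPM with DMSO and 5001, 4629.9 and 4637 TPM with WM-1119 in MOLM-13 (-0.15 ± 0.14). In ER-Hoxa9 Rps6 measured 2359 and 1924 TPM with DMSO and 2184 and 1841 TPM with WM-1119 (-0.087 ± 0.16), and the groups overlapped in both lines. RPS27A, made as a fusion with ubiquitin, measured 1389, 1322 and 1649 TPM with DMSO and 1414, 1205 and 1313 TPM with WM-1119 in MOLM-13 (-0.15 ± 0.16). RPS4X measured 2101, 2166 and 2349 TPM with DMSO and 2106, 2012 and 2007 TPM with WM-1119 (-0.11 ± 0.13), and both members overlapped between the groups. RPSA, also known as the laminin receptor, was positive in MOLM-13 at 0.048 ± 0.18, from 1805, 1895 and 1544 TPM with DMSO and 2041, 1951 and 1465 TPM with WM-1119, and was -0.022 with median-of-ratios scaling. Rps12 followed Rpl12 as the next lowest ER-Hoxa9 difference, from 8663 and 7143 TPM with DMSO and 6006 and 6241 TPM with WM-1119, without overlap (-0.36 ± 0.15, adjusted p = 0.402, limma). In MOLM-13 the RPS12 difference was -0.064 ± 0.20, from 5421, 5686 and 8120.1 TPM with DMSO and 5855, 5252 and 7122 TPM with WM-1119.

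RPS27, RPS28 and RPS29 encode small proteins of the small subunit. RPS27 measured 6932, 7187 and 16332 TPM with DMSO and 8406, 7317 and 15981 TPM with WM-1119 in MOLM-13, with replicate 3 of each group far over the other libraries. Its log2 difference was 0.091 ± 0.41. In ER-Hoxa9 Rps27 measured 2106 and 1488 TPM with DMSO and 2102 and 2366 TPM with WM-1119, level in replicate 1 and higher under WM-1119 in replicate 2 (0.33 ± 0.20, adjusted p = 0.519, limma). Rps29 was higher under WM-1119 in both pairs, from 12116 and 10078 TPM with DMSO and 13698 and 10819 TPM with WM-1119 (0.14 ± 0.19), but the groups overlapped. In MOLM-13 the RPS29 difference was negative, from 3396, 3293 and 9269 TPM with DMSO and 3423, 3016 and 6348 TPM with WM-1119 (-0.22 ± 0.45). RPS28 measured 5272, 6313 and 15199.8 TPM with DMSO and 5324, 4929 and 14493 TPM with WM-1119 in MOLM-13 (-0.14 ± 0.52), and Rps28 was -0.00036 ± 0.15 in ER-Hoxa9.

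RPS21 measured 2592, 2673 and 7364 TPM with DMSO and 2547, 2395 and 6722 TPM with WM-1119 in MOLM-13. In ER-Hoxa9 Rps21 measured 11675 and 11777 TPM with DMSO and 10327 and 11031 TPM with WM-1119. It was lower under WM-1119 in all 5 pairs, with differences of -0.11 ± 0.52 and -0.14 ± 0.13. RPS26, a Diamond-Blackfan gene at the messenger RNA exit channel, was the least abundant tested small subunit member of MOLM-13, at 380.2, 234 and 246 TPM with DMSO and 359, 276 and 268 TPM with WM-1119 (0.095 ± 0.24). In ER-Hoxa9 Rps26 was abundant, at 8156 and 8056 TPM with DMSO and 6538 and 7437 TPM with WM-1119, without overlap (-0.22 ± 0.14).

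**Figure D3:**
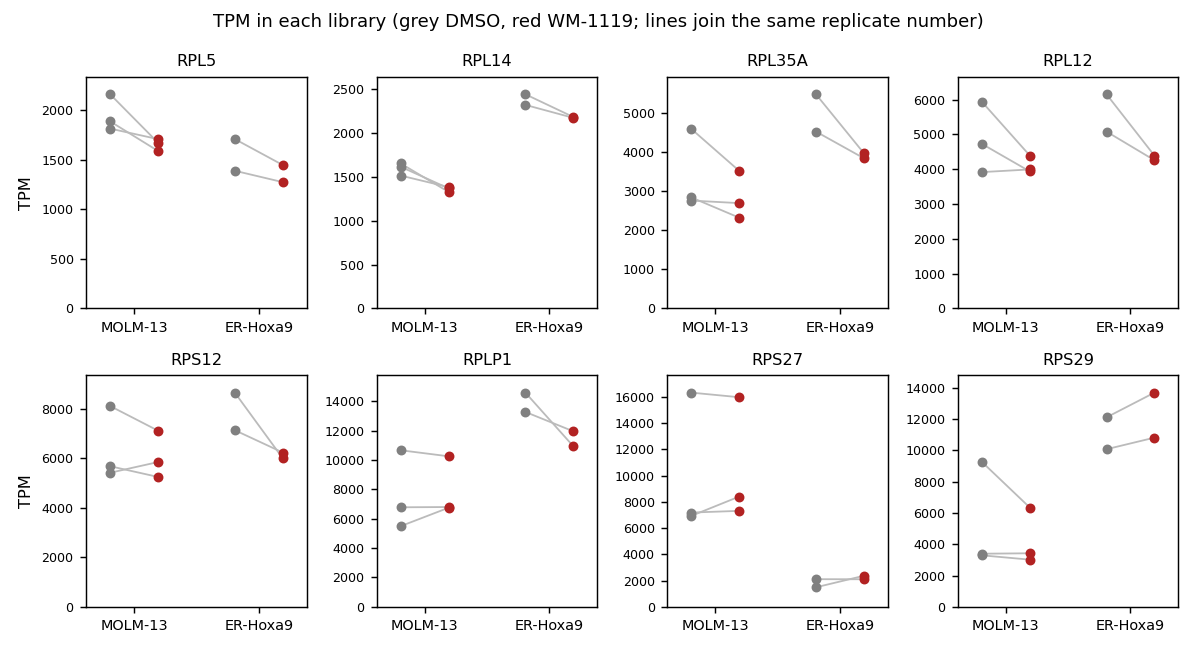
TPM of 8 members in each library are drawn from 0, grey for DMSO and red for WM-1119, and lines join libraries with the same replicate number. RPL5 and RPL14 do not overlap between treatments in MOLM-13, Rpl12, Rpl14, Rpl35a, Rps12 and Rplp1 do not overlap in ER-Hoxa9, and the MOLM-13 replicate 3 libraries lie far above the others for RPS27 and RPS29.

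To compare members with the family as a whole, the median log2(TPM + 1) of the tested members was subtracted from each library before the fit. This took the median SD of members between DMSO libraries from 0.24 to 0.15 in MOLM-13 and from 0.15 to 0.059 in ER-Hoxa9. Between WM-1119 libraries it was 0.14 before and 0.15 after in MOLM-13, and 0.074 and 0.057 in ER-Hoxa9. In MOLM-13 limma called 0 members without the block (0.0% of all genes higher, 0.00804% lower), and 0 had an unadjusted p under 0.05 (1.49% and 0.426%). Since same-numbered MOLM-13 libraries deviate together, the blocked fit is given too. It called 0 members lower (0.507% of all genes) and 2 higher, RPLP1 (0.22 ± 0.05, adjusted p = 0.028, limma) and RPS27 (0.23 ± 0.05, adjusted p = 0.012, limma), each relative to the family in 3 of 3 pairs. These are 2.56% of 78 members, where 2.73% of all genes were called higher by the same fit. Subtracting the family median raised the other genes under WM-1119 relative to DMSO. Only 16.2% of all genes were negative in this fit, and 7.66% in that of ER-Hoxa9. Shares of all genes in these fits include the family's own shift and are no neutral background for the members. Without the replicate 3 pair the same 2 members were called higher (1.31% of all genes) and 0 lower (0.631%). In ER-Hoxa9 limma called 0 members (0.0264% of all genes higher, 0.0176% lower). At an unadjusted p under 0.05, 0 members were lower (0.361% of all genes) and 2 higher (22.7%), Rps27 (0.53 ± 0.15, adjusted p = 0.191, limma) and Rps29 (0.33 ± 0.12, adjusted p = 0.201, limma).

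The replicate 3 libraries of MOLM-13 stood apart most in the members that encode short proteins. DMSO replicate 3 was the highest DMSO library for 70 of 78 members (all genes 17.1%), and WM-1119 replicate 3 the highest WM-1119 library for 53 of 78 (all genes 20.6%). The median ratio of DMSO replicate 3 to the mean of replicates 1 and 2 was 2.13 for 10 members of fewer than 100 residues, 1.47 for 27 of 100 to 150 residues, 1.30 for 19 of 150 to 200, 1.17 for 19 of 200 to 300, and 1.05 for 3 of at least 300. RPS21 (83 residues) had a ratio of 2.80, RPS29 (56) of 2.77 and RPS28 (69) of 2.62, while RPLP0 (317) had 0.941. RPL41, the shortest, had 1.28 and RPL39L (51 residues) 0.738, so length does not order every member.

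Across 78 members the log2 ratio and log2 protein length gave a Pearson's r of -0.54 and a Spearman's rho of -0.66 in DMSO, and -0.60 and -0.68 in WM-1119. These are correlations across genes of the same libraries, which are not independent replicates. Over 10645 other tested protein-coding genes the r was -0.24 in DMSO and -0.34 in WM-1119, with median ratios from 0.997 for fewer than 100 residues to 0.787 for at least 300. The log2 difference between WM-1119 and DMSO followed length less, with an r of -0.18 over the members.

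**Figure D4:**
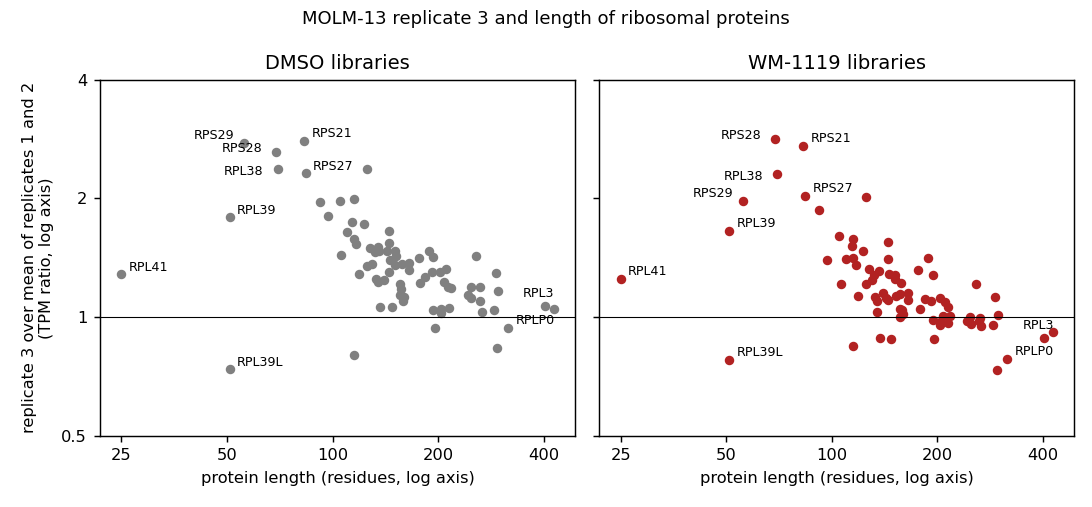
For 78 MOLM-13 members, the ratio of TPM in replicate 3 to the mean of replicates 1 and 2 (log axis) is drawn against the length of the encoded protein (log axis), for DMSO on the left and WM-1119 on the right. In DMSO the short members RPS21, RPS29 and RPS28 lie highest, and RPL3 and RPLP0 lie near 1. In WM-1119 RPS28, RPS21 and RPL38 lie highest, and RPL3 (0.884) and RPLP0 (0.783) lie below 1. RPL41 and RPL39L fall below the other short members in both.

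The abundance order within the family differed between the lines. Over 76 members tested in both, log2 DMSO means gave a Pearson's r of 0.14 and a Spearman's rho of 0.24, against 0.73 and 0.67 over 8726 genes tested in both, a set with a far wider range of levels. The DMSO means were over 2-fold apart for 26 members, where 39.0% of all 8726 genes were, so this count is below the background share. RPS26 averaged 287 ± 81.4 TPM in MOLM-13 (SD, n = 3) and 8106 ± 70.3 TPM in ER-Hoxa9 (SD, n = 2), a ratio of 28.3. RPL32, RPL13 and RPS23 were also lower in MOLM-13, by ratios of 8.12, 7.55 and 8.97. In the other direction RPL30, RPL26, RPS15A and RPS20 were 28.3, 24.7, 15.2 and 9.85 times as high in MOLM-13, and RPS27 5.65 times. Apart from RPS26 and RPS27, these were named after their values were seen.

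These genes have many processed copies in both genomes, and reads can be divided between a gene and near-identical copies, so levels of single members are uncertain. The human table listed 31 ribosomal protein pseudogene symbols that summed to 56.0 to 101 TPM per library. The mouse table listed 7 that summed to 4722 to 7451 TPM, nearly all from Rpl34-ps1, which measured 7427 and 6618 TPM with DMSO and 4696 and 5227 TPM with WM-1119. Rpl34 itself measured 1186 and 1062 TPM with DMSO and 944 and 899 TPM with WM-1119. Rpl34-ps1 was named after its values were seen, and its log2 difference was -0.50 ± 0.14 (adjusted p = 0.312, limma).

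**Figure D5:**
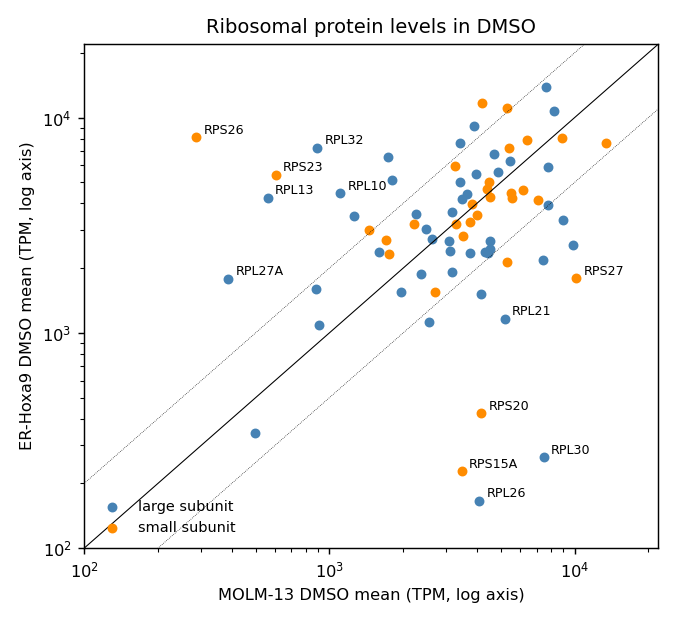
Mean DMSO TPM of 76 members are drawn for MOLM-13 (horizontal) and ER-Hoxa9 (vertical) on log axes, with the solid line at equal values and dotted lines at 2-fold. RPS26, RPS23, RPL13 and RPL32 lie far above the line, and RPL30, RPL26 and RPS15A far below it.

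Related genes gave a context for the family. Of 78 mitochondrial ribosomal protein genes, which serve the separate ribosome of mitochondria, 44 were positive and 34 negative in MOLM-13 (median 0.019), and 56 and 22 in ER-Hoxa9 (median 0.12), near the medians of all genes. Other TOP transcripts, which encode translation factors and a few abundant proteins, were negative for 12 of 17 in MOLM-13 (median -0.085) and 12 of 16 in ER-Hoxa9 (median -0.082). Genes of ribosome biogenesis were negative for 22 of 28 (median -0.062) and 20 of 28 (median -0.091). Among 12 chaperones and importers of ribosomal proteins 4 and 7 were negative, and among 13 regulators of their transcripts 6 and 6. Of all genes, 38.5% were negative in MOLM-13 and 28.1% in ER-Hoxa9. Limma called 0 genes of these lists in either line. At an unadjusted p under 0.05 it gave 0 in MOLM-13, where 2.08% of all genes were higher and 0.965% lower. In ER-Hoxa9 it gave 7 of 78 mitochondrial ribosomal protein genes and 1 of 13 regulators at that level. There, 11.6% of all genes were higher and 1.13% lower.

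Ribosome components that the symbol rule does not take were measured alongside. RACK1, a scaffold on the small subunit, had a more negative difference than any MOLM-13 member. It measured 2398, 3065 and 3029 TPM with DMSO and 2101, 2467 and 2201 TPM with WM-1119 in MOLM-13, and its log2 difference was -0.32 ± 0.16 with overlap between the groups (adjusted p = 1.00, limma). Rack1 measured 2766 and 2155 TPM with DMSO and 2214 and 1876 TPM with WM-1119 in ER-Hoxa9 (-0.26 ± 0.17). Rpl22l1, the paralogue of Rpl22, measured 1689.9 and 1358 TPM with DMSO and 844 and 1015 TPM with WM-1119 in ER-Hoxa9, without overlap, and its difference of -0.71 ± 0.17 (adjusted p = 0.309, limma) was larger than that of any member. In MOLM-13 RPL22L1 measured 62.8, 30.6 and 65.2 TPM with DMSO and 51.1, 30.4 and 43.3 TPM with WM-1119 (-0.29 ± 0.34). These 2 genes were singled out after their values were seen.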

How the data were processed

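RNA of 6 MOLM-13 and 4 ER-Hoxa9 libraries was extracted with an RNeasy kit and sequenced, per the labels' protocols. For each line the authors deposited a table of TPM by gene symbol, with libraries that sum to 1000000. The submitters' processing notes name Salmon, hg38 and mm10. The Salmon version and the annotation: not given in the sources used here. TPM hold no read number, so no counting interval is given. Columns were matched to samples by treatment and number, with 0 left unassigned. Headers of the mouse table name the line differently from the labels. They were read as ER-Hoxa9, since the series has 1 mouse line. No pair of libraries held identical values.

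The members and gene lists were chosen with earlier results of these data known. Genes that averaged 1 TPM or more in a line entered that line's fit as log2(TPM + 1). The fit used lmFit and eBayes (trend = TRUE) of limma 3.58.1 under R 4.3.3, two-sided, with Benjamini-Hochberg adjustment over all tested genes and a threshold of 0.05. Fold changes are on this scale and understate the change of low genes. The fits were also run on simulated data, with noise independent between libraries and added changes larger than any member's difference in the main fits. That run therefore does not show how differences of the size seen here, or paired libraries, are handled. Scores over the members have no p. Named genes were members past the threshold, the 4 highest, 4 lowest and 4 most abundant per line, and fixed members, 33 in all. Alternatives were a replicate block, a pseudocount of 0.1, no filter, median-of-ratios scaling alone and with the block, removal of microRNA symbols, scaling to the total of other genes, leaving out each library and, chosen after seeing the data, leaving out the replicate 3 pair (with the block in fits).

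Same-numbered MOLM-13 libraries deviated together from their group means, with correlations across genes of 0.52, 0.44 and 0.61, all over 0.1, which was taken as pairing. What libraries of a number have in common is not stated in the labels. Protein lengths are from GENCODE release 29 and start windows from RefSeq. Python 3.11.15, pandas 2.3.3 and matplotlib 3.10.9 were used.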

Additional observations from a re-analysis of the deposited data

How the results depend on the processing

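In both lines, 0 members were called in every fit without the family median removed, left-out libraries included. With the family median removed, the replicate block called 2 MOLM-13 members higher, and 2 without the replicate 3 pair. That removal shifts the other genes in both lines, so shares of all genes are no neutral background for such calls. In ER-Hoxa9 the numbers are not shown to pair the libraries (correlation 0.21, only 2 pairs). The block there called 6 members higher (Rps27, Rps28 and Rps29 among them; all genes 17.9%) and 3 lower (Rpl12, Rpl35a and Rps12; all genes 1.03%). With the family median kept, the block gave 18 of 77 ER-Hoxa9 members lower at an unadjusted p under 0.05 (all genes 2.4%). With median-of-ratios scaling added it gave 15 (7.03%). The block changed no other call.

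Median-of-ratios scaling, alone or with the block, moved the ER-Hoxa9 medians to -0.29 for large and -0.31 for small subunit members. Leaving out 1 library gave -0.27 to -0.072 for large and -0.30 to -0.079 for small subunit members in ER-Hoxa9, and -0.21 (without DMSO replicate 1) to 0.0013 (without DMSO replicate 3) for all MOLM-13 members. In MOLM-13, the block without the replicate 3 pair turned RPL10 to 0.051 and RPLP0 to 0.077, and RPSA was -0.022 with median-of-ratios scaling, -0.022 with the block added and -0.010 when scaled to the total of other genes.

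Leaving out the replicate 3 pair in the blocked MOLM-13 fit turned the sign of 2 of 31 named members, RPL10 and RPLP0. Leaving out 1 library, which breaks a pair in MOLM-13, turned 20 of 31 named members in MOLM-13 and 7 of 31 in ER-Hoxa9. Log2 differences then ranged over RPL10 -0.059 to 0.079, RPL22 -0.23 to 0.10, RPL35 -0.35 to 0.10, RPL35A -0.40 to 0.0012, RPL38 -0.65 to 0.17, RPL39 -0.32 to 0.20, RPL39L -0.064 to 0.25, RPL41 -0.13 to 0.10, RPLP0 -0.070 to 0.11, RPLP1 -0.13 to 0.35, RPLP2 -0.38 to 0.17, RPS12 -0.18 to 0.12, RPS14 -0.30 to 0.018, RPS19 -0.28 to 0.15, RPS21 -0.59 to 0.39, RPS26 -0.039 to 0.32, RPS27 -0.25 to 0.49, RPS28 -0.64 to 0.33, RPS29 -0.55 to 0.27, RPSA -0.043 to 0.20 in MOLM-13, and RPS27 relative to the family over -0.022 to 0.47. In ER-Hoxa9 they ranged over Rpl10 -0.19 to 0.071, Rpl38 -0.17 to 0.078, Rpl3l -0.21 to 0.41, Rps19 -0.36 to 0.015, Rps28 -0.10 to 0.10, Rps29 -0.031 to 0.31, Rps6 -0.23 to 0.060. The causes were not tested. With 2 or 3 libraries a group and no read numbers, differences of the size seen here are not resolved for single members.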
